A study of Mus musculus with 2 samples.

Results

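Cystatins are protein inhibitors that sit in the active site cleft of papain-like cysteine proteases, above all the lysosomal cathepsins, and block it reversibly. Stefins are the cytosolic branch of the family. Mice carry a row of stefin A genes on chromosome 16, known from neutrophils and other myeloid cells, while stefin B (Cstb) and cystatin C (Cst3) are made in most tissues and cystatin F (Cst7) in immune cells. The 8 genes described here are the stefin A genes Stfa1, Stfa2, Stfa2l1, Stfa3 and BC100530 (now Cstdc5 in RefSeq) and the cystatins Cstb, Cst3 and Cst7. They were taken by gene name among 55681 non-control probes, each had 1 probe with 1 spot per array, and all 8 were among the 19870 genes bright enough to be measured. They were chosen for their ratios in the comparison given below, so their own values are a description and carry no test.

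The series used 2 two-colour arrays. Each set RNA of C57BL/6 fetal liver erythroid progenitors (lineage-negative, E14.5) transduced with ESlncRNA, a long noncoding RNA of erythroid cells, against RNA of the same kind of cells given the vector alone, both sorted for GFP. ESlncRNA RNA was labelled with Cy5 and vector RNA with Cy3 on both arrays with no dye swap, and any preference of a probe for 1 dye is therefore part of both ratios. The labels name no probe for ESlncRNA. The array has 10 probes for noncoding intervals between Eps15 and Ttc39a on chromosome 4, and they were matched to it with their values already known. Of these 9 were kept, 8 of them through the ESlncRNA channel alone, so their direction was fixed by that choice and is no test of the label. Those 8 were at least 1.53-fold to at least 4.62-fold higher, and the 1 kept probe above background in both channels had a log2 ratio of 0.05 ± 0.10. Among 18 erythroid markers all were well above background in both channels, 13 rose by limma's test at an adjusted p under 0.05, 1 fell and 4 missed that threshold (26.3% of all genes rose and 36.8% fell), with a median log2 ratio of 0.71. The labels do not say that the replicates came from separate cultures. Over 120 probes with 10 spots per array, array means differed by a median of 0.024 on the log2 scale, and the scatter between spots alone would give 0.0247. The arrays may hold 1 RNA sample, and a p-value below is set against array-to-array scatter that may be wholly technical.

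The probes are 60 bases long, and how far they resemble each other bears on whether the stefin A copies were measured apart. Between the 10 pairs of stefin A member probes, the best alignment without gaps matched from 20 to 40 bases, with a median of 21, which is also the median match of Stfa1, Stfa2, Stfa2l1 or BC100530 to all 55680 other probes (shifts of up to 30 bases, a limit set after the sequences were seen). Most pairs of these probes are thus not near-identical. The 2 closest member pairs follow, with mismatched bases in capitals. Stfa1 and Stfa2 matched at 40 bases, and the 30 bases of best match are shown.
Stfa1: caGtgGaaagagatTcAgccatGaataaag
Stfa2: caTtgTaaagagatGcGgccatCaataaag

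BC100530 and Stfa3 matched at 35 of 41 overlapping bases, and both probes are shown whole.
BC100530: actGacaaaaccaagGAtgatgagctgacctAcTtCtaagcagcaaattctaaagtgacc
Stfa3: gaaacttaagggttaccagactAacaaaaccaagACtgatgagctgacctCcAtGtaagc

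The closest match to any member was a probe of the Ensembl transcript ENSMUST00000077110 in the same locus, which shares 50 of 60 bases with the probe of Stfa2l1.
Stfa2l1: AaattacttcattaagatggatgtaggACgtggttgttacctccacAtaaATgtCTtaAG
ENSMUST00000077110: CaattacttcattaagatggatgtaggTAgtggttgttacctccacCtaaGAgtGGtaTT

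The array's annotation assigns the Stfa2l1 probe to the RefSeq transcripts of both Stfa2l1 and Stfa2, so its value is uncertain as a measure of either gene alone. Probe-to-probe matches do not show how well a probe binds the other copies' transcripts, which were not compared here, and the separate stefin A values stay uncertain for that reason. Cstb and Cst3 had probes whose nearest neighbours on the array, of unrelated genes or intervals, matched at 31 and 34 bases.
Cstb: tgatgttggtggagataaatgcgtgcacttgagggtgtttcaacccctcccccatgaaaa
Cst3: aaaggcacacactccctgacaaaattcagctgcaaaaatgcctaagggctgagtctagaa

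The 5 stefin A members were among the most strongly lowered genes of the arrays, and each kept between 1.54% and 2.44% of its vector intensity when ESlncRNA was over-expressed. Intensities are Feature Extraction's processed signals, which are background-subtracted and dye-normalized. Log2 ratios are ESlncRNA over vector after normexp and loess, given as the mean of 2 arrays with the SD.

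Stfa1 encodes a cytosolic stefin A, and its probe lies at chr16:36285398-36285457 (mm9, forward strand; NM_001082543). Its intensity was 87352 and 87728 with the vector and 2006 and 2103 with ESlncRNA, on the arrays of replicates 1 and 2. The ESlncRNA intensity was far below the vector intensity on both arrays, and the log2 ratio was -5.44 ± 0.076 (SD, n = 2 arrays), a 43.3-fold lower signal.

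BC100530 is another gene of the stefin A row, with its probe on the reverse strand at chr16:36359525-36359584 (NM_001082546). It gave 78952 and 83065 with the vector against 1823 and 1950 with ESlncRNA. The log2 ratio was -5.48 ± 0.025, or 44.5-fold lower, and its arrays differed by less than those of any other member.

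Stfa2 (chr16:36404032-36404089, reverse strand, NM_001082545) had intensities of 19361 and 19686 with the vector and 347 and 304 with ESlncRNA. At -5.81 ± 0.17 (56.2-fold lower) it had the lowest mean log2 ratio of all 19870 genes, and it was also the stefin A member with the largest difference between arrays, -5.69 against -5.93. Stfa2 was below Stfa2l1 on both arrays, by little on the first, where Stfa2l1 was at -5.68, and by more on the second, where it was at -5.64.

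Stfa2l1, the Stfa2-like copy, was measured by a probe whose annotated coordinates, chr16:36160118-36161876 on the forward strand, span more than its own length (NM_173869). Intensities of 9628 and 10246 fell to 188 and 203. The log2 ratio was -5.66 ± 0.032, or 50.5-fold lower, and both arrays lay below those of Stfa1, BC100530 and Stfa3.

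Stfa3 (chr16:36450693-36450752, reverse strand, NM_025288) gave 9279 and 10015 with the vector and 225 and 244 with ESlncRNA. Its log2 ratio was -5.36 ± 0.049, or 41.0-fold lower, the least lowered of the 5 after loess, while Stfa1 was the least lowered with median centring (-4.59 against -4.79) and with a normexp offset of 0 (-5.46 against -5.48). Stfa3 was less lowered than Stfa1 on both arrays (-5.39 against -5.49, and -5.32 against -5.38). The ranges over the 2 arrays still overlapped, as did those of BC100530 and Stfa1. The means of the stefin A members spanned 0.46 on the log2 scale from Stfa2 to Stfa3.

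**Figure D1:**
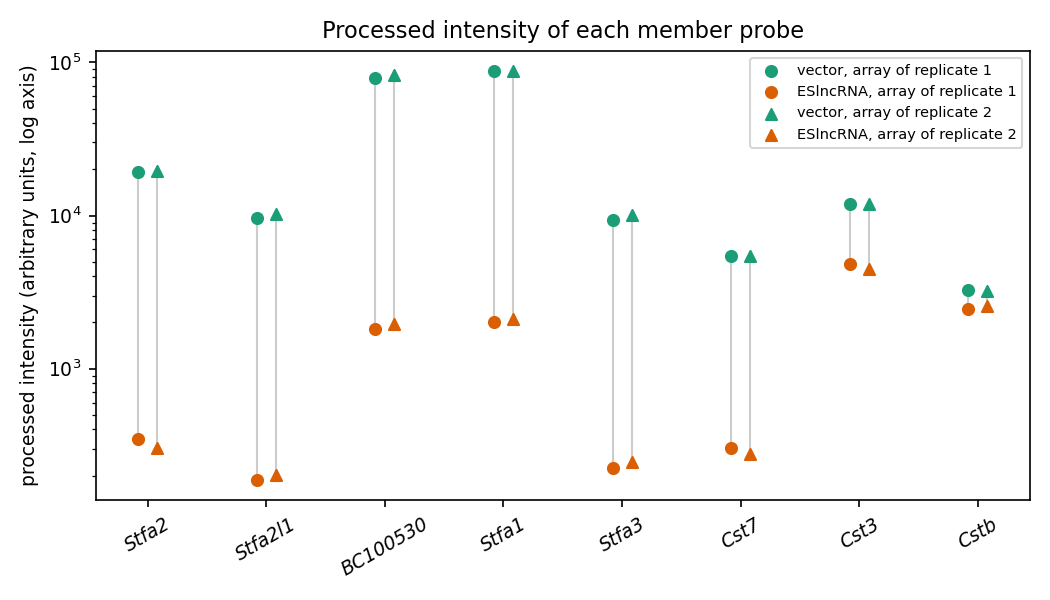
Processed intensity (arbitrary units, log axis) of the probe of each member in the vector channel (green) and the ESlncRNA channel (orange), with circles for the array of replicate 1 and triangles for that of replicate 2, joined within an array. The 5 stefin A probes and Cst7 fall far below their vector signal on both arrays, while Cstb moves from 3241 and 3235 to 2465 and 2572. Levels of different probes are not comparable.

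The other cystatins did not move as a block. Cst7 encodes cystatin F, or leukocystatin, which is carried to the lysosomes of immune cells, and its probe lies on chromosome 2 at chr2:150404490-150404549 (mm9, NM_009977). It fell from 5451 and 5467 with the vector to 305 and 276 with ESlncRNA. The log2 ratio was -4.19 ± 0.14, or 18.2-fold lower, so that 5.60% and 5.05% of the vector signal were left and Cst7 was the 42nd lowest of 19870 genes.

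Cst3 encodes cystatin C, the secreted inhibitor found in most body fluids, and is represented at chr2:148697681-148697740 on the reverse strand (NM_009976). Its intensities were 11921 and 11966 with the vector and 4857 and 4505 with ESlncRNA. The ratio was -1.39 ± 0.057 on the log2 scale, or 2.62-fold lower, and the arrays gave -1.35 and -1.43.

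Cstb encodes stefin B, the cytosolic relative of stefin A that is present in nearly every cell (chr10:77890058-77890117, NM_007793). It gave 3241 and 3235 with the vector and 2465 and 2572 with ESlncRNA, a lower processed intensity on both arrays. The log2 ratio was -0.53 ± 0.087, or 1.44-fold lower. Its sign depends on the scaling: with median centring in place of loess it was 0.09, where the median of all genes was 0.34. Relative to all genes Cstb was at -0.50 under loess, -0.48 in Agilent's processed signals and -0.25 under median centring.

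All 5 stefin A members, and 0 of the 3 other cystatins, were at least 32-fold lower on both arrays, against 0.0705% of the genes measured (14 of 19870). The 5 stefin A members and Cst7 passed a 16-fold limit on both arrays, which 0.247% of genes did, and these 6 and Cst3 passed a 2-fold limit, which 8.1% of genes did. The members were chosen on this comparison, so the counts describe the choice. They also rest on the scaling by loess. With median centring the means of Stfa1 (-4.59), BC100530 (-4.64) and Stfa3 (-4.79) fell short of 32-fold, while Stfa2 (-5.20) and Stfa2l1 (-5.09) did not. Cst7 (-3.65) then fell short of 16-fold and Cst3 (-0.63) of 2-fold. The shares of all genes were not computed for that scaling. The median log2 ratio was -5.48 ± 0.025 for the stefin A members and -1.39 ± 0.057 for the other cystatins, a gap of -4.09, while the median of all genes was -0.03. Median centring moved the 2 medians to -4.79 and -0.63 and left the gap at -4.16.

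**Figure D2:**
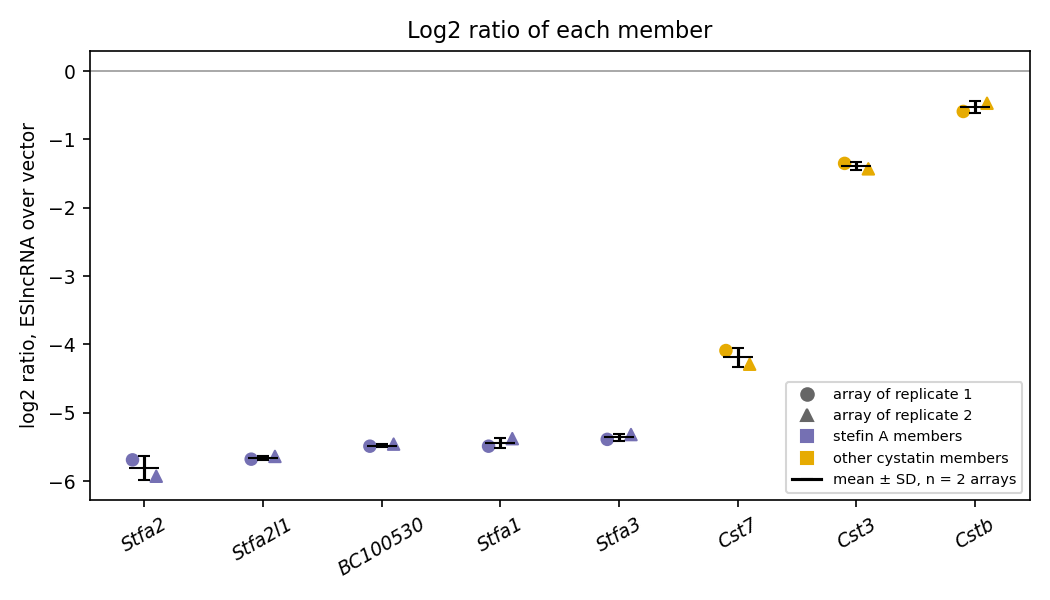
Log2 ratio of ESlncRNA over vector for the 8 members, with circles and triangles for the arrays of replicates 1 and 2 and bars for the mean ± SD (n = 2 arrays). The stefin A members (purple) lie between -5.32 and -5.93 on single arrays, and the other cystatins (yellow) are spread from Cst7 at -4.19 to Cstb at -0.53.

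The stefin A row holds further genes, and the array carried 14 probes between chr16:36120084 and 36450752 (mm9), of which 9 belong to no member. They are given here without a test, since they lie in the locus that the members were chosen from. Gm5483 and BC117090 also belong to the list of other superfamily genes below, where their calls are counted. 2010005H15Rik (now Csta2) had 10 spots on each array, of which 10 and 9 were usable, and so gives the spread within an array. Its spots had a mean log2 ratio of -5.77 ± 0.12 (SD over spots) on the first array and -5.66 ± 0.083 on the second, and the array means differed by 0.10. Gm5483 (Cstdc4) was at -5.43 ± 0.10 (SD, n = 2 arrays) and ENSMUST00000077110 at -5.14 ± 0.061. Gm5416 (Csta3) was at -4.07 ± 0.31, with an ESlncRNA signal well above background on only 1 of 2 arrays.

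Other probes inside the row had ratios nearer 0, but some of them were dim, which limits how low a ratio can go. LOC100044745 was at -2.30 ± 0.056, with intensities of 150 and 181 with the vector and 11.1 and 21.9 with ESlncRNA. In these processed intensities 7.41% and 12.1% of its vector signal were left. BC117090 (Cstdc6) was at -0.39 ± 0.14, with vector intensities of only 9.70 and 20.2, too dim to show a fall as large as that of the members. The predicted gene Gm6815 was bright in both channels, at 714 and 759 with the vector and 757 and 777 with ESlncRNA, and its log2 ratio was -0.05 ± 0.026. The probes of Csta (Csta1) and Gm4758 were too dim to be kept. In all, 8 of the 14 probes of the locus were at least 32-fold lower on both arrays after loess, and probes near 0 or too dim lie between them along the chromosome.

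Genes on either side of the row were then compared, within 500 kb of the outermost member probes. Of 25 such genes 18 were measured, with a median log2 ratio of -0.08 and values from -1.09 to 0.14. Cd86, a co-stimulatory molecule of antigen-presenting cells, had the lowest ratio (adjusted p = 9.73e-06, limma) and was at least 1.67-fold lower. Its ESlncRNA signal was not well above background, so Cd86 was kept through the vector channel alone. That fixed its direction, and its p-value is no test of it. Dtx3l, a ubiquitin ligase, was at -0.48 ± 0.10 (adjusted p = 0.00047), and Parp14, an interferon-inducible ADP-ribosyltransferase, at -0.49 ± 0.15 (adjusted p = 0.000816). A dimmer probe of Dtx3l, at 21.8 and 15.7 with the vector, was at -0.15 ± 0.10 and did not pass (adjusted p = 0.0535). Slc15a2, a peptide transporter, fell by 0.35 on the log2 scale (adjusted p = 0.00133). Kpna1, a nuclear import receptor, and Ccdc58, the measured gene closest to the row, were at 0.08 and 0.01 and did not pass (adjusted p = 0.195 and 0.861). Of the 18 genes, 9 fell (Cd86 among them), 1 rose and 8 did not pass, against 36.8% lower and 26.3% higher among all genes. These counts rest on the scaling, with 1 lower and 12 higher under median centring and 2 lower and 6 higher with Agilent's processed signals.

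**Figure D3:**
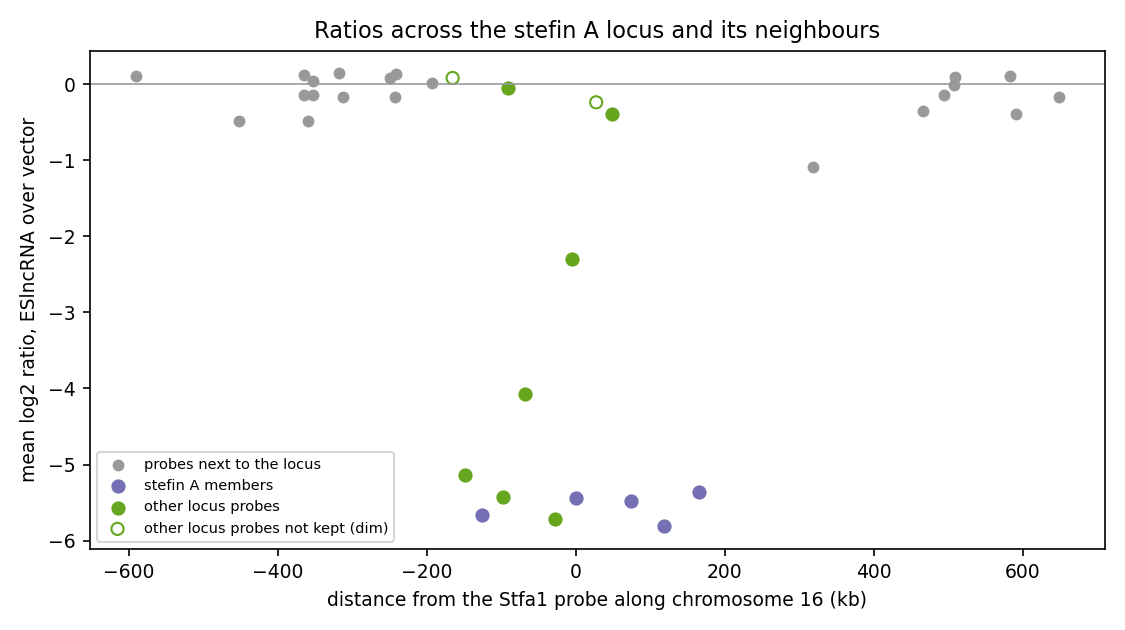
Mean log2 ratio of ESlncRNA over vector by distance along chromosome 16 from the Stfa1 probe, in kb, for the stefin A members (purple), other probes of the locus (green, open where too dim to be kept) and probes next to the locus (grey). Strongly lowered probes lie inside the stefin A row, where Gm6815 at -0.05 and the dim BC117090 at -0.39 lie among them. The grey probes lie between -1.09 and 0.14.

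The stefin A members also share upstream sequence. They are neighbouring copies of the same gene family, which can share such sequence whatever their ratios, and a link between the sequence and the ratios was not tested. RefSeq's table (GRCm38.p6) held a start region for 7 of the 8 members. Over the 250 bases before the start, the 10 pairs of stefin A members were 69.9% to 89.4% identical, Stfa2 and Stfa2l1 being the closest, whereas the 11 pairs that include Cst3 or Cst7 were 39.3% to 47.2% identical. Runs of at least 10 bases common to all 5 stefin A members are in capitals in the last 150 bases before each start, read along the gene's strand. The run length and the stretch shown were set after the sequences were seen, and identity was not computed for the other genes of the row.
Stfa1: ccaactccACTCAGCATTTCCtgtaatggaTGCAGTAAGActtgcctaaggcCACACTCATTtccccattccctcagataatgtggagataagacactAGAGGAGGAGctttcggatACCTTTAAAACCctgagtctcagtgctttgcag
Stfa2: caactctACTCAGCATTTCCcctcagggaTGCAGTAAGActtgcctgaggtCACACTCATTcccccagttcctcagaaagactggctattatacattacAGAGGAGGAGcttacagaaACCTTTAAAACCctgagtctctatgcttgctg
Stfa2l1: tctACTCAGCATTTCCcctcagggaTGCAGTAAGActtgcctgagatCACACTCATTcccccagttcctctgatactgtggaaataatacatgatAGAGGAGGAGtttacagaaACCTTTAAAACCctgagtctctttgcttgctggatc
Stfa3: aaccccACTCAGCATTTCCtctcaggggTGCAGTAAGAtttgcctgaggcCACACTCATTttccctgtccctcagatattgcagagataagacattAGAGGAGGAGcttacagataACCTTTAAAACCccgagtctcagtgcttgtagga
BC100530: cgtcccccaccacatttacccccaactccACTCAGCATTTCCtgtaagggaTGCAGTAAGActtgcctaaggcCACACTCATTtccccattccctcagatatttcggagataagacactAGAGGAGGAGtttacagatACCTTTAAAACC

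These stretches lie at chr16:36276998-36277147, chr16:36408364-36408513, chr16:36156661-36156810, chr16:36455393-36455542 and chr16:36367571-36367720 in that order, with Stfa1 and Stfa2l1 on the forward strand. The run ACCTTTAAAACC starts between 36 and 12 bases before the listed start and occurs, on either strand, in 0.0335% of 32851 upstream windows of the same length (11 windows). The run AGAGGAGGAG occurs in 0.816% and ACTCAGCATTTCC in 0.0274%. A sixth common run, ATTATTGGCACAGAG, lies further upstream and was found in 5 windows, those of the 5 members. None of the 6 runs occurs in the windows of Cst3 or Cst7, but several occur at other genes of the stefin A row. ACTCAGCATTTCC is also found at Csta1, Csta3, Cstdc3 and Gm7260, and ACCTTTAAAACC at Csta3, Cstdc3, Cstdc4 and Gm7260. Csta1, whose probe was too dim to be kept, thus carries 1 of these 2 runs. Cstdc4, at -5.43, also carries only 1 of them. Neither run was found in a window of Csta2, at -5.72, and whether the table held a window for Csta2 was not checked.

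Short motifs were searched on both strands of the same 250 bases, and each one tried is given. Of the ETS forms, GAGGAA was found in 5 of 5 stefin A members and in Cst3, against 23.3% of all windows. The longer GAGGAAGT was found in 0 of the 7 members with a window, against 2.44% of all windows. GGAAGT was found in Stfa2, Stfa2l1 and Cst7 (19.7% of all windows), and GGAAGTG, which contains it, in the same 3 (8.55%). The C/EBP form TTNNGCAA, searched also as its reverse complement with the same outcome, was found in BC100530 and Stfa1 (9.56%). The GATA form AGATAA was found in BC100530, Stfa1 and Stfa3 (9.99%). The TATA box form TATAAA was found in 0 of the 7 (12.4%). A match says only that the letters are present, and no match only that they are not in this window.

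The proteases that cystatins inhibit were measured by the same arrays. Of 11 papain-like cathepsins and legumain, 8 fell and 3 did not pass, with a median of -0.53, where 36.8% of all genes fell. Ctsh, an aminopeptidase of lysosomes, had the lowest ratio at -3.02 ± 0.14 (adjusted p = 1.82e-07), followed by Ctss, the cathepsin of antigen-presenting cells, at -2.96 ± 0.29 (adjusted p = 1.14e-06). Lgmn, legumain, which cystatin C inhibits at a site of its own, was at -2.03 ± 0.076 (adjusted p = 4.36e-07). Ctsc, the dipeptidyl peptidase that activates granule proteases, was at -0.89 ± 0.0042 (adjusted p = 1.16e-05). Those 4 had the smallest p. The members of the list that did not pass are named for that reason, after their values were seen. Ctsb and Ctso were at 0.04 and 0.05 and did not pass (adjusted p = 0.562 and 0.398), and Ctsw did not pass either. Of these only Ctsb was bright, at 7159 and 6810 with the vector. Ctso, at 16.1 and 9.31, and Ctsw, at 8.86 and 13.4, were too dim to show a large fall. Ctsw was kept through the vector channel alone. With median centring 5 of the 11 fell and 1 rose.

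Of 19 other genes of the cystatin superfamily on the array 8 were measured, of which 7 fell (36.8% of all genes did) and 1 did not pass. Of the 7, Cstdc4 and Cstdc6 lie in the stefin A row, from which the members were chosen, so the count of 7 supports nothing. Outside the row 5 of 6 fell, a split made after the values were seen. Camp and Ngp are also granulocyte markers. Camp, the cathelicidin of neutrophil granules, whose precursor has a cystatin-like part, was at -5.07 ± 0.029 (adjusted p = 5.54e-08, limma). Ngp, a cystatin-like protein of neutrophil granules, was at -3.79 ± 0.016 (adjusted p = 5.78e-08). Ahsg, a fetuin secreted by the liver, was at -1.64 ± 0.014 (adjusted p = 7.34e-07). The rest were not among the smallest p and are named after their values were seen. Fetub, another fetuin, was at -0.91 ± 0.054 (adjusted p = 1.35e-05), Kng1, kininogen, at -0.31 ± 0.053 (adjusted p = 0.0019), and Cst6, cystatin E/M, at -0.07 ± 0.016 (adjusted p = 0.236). Cst6 gave only 6.77 and 9.31 with the vector and was kept through that channel alone. It was too dim to show a large fall, so its ratio does not show that it was unchanged.

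Markers of granulocytes, macrophages and mast cells, basophils and eosinophils also fell, to differing degrees. Levels of different probes are not comparable, so the sums below follow the brightest probes. Of 25 granulocyte markers measured, all 25 fell (36.8% of all genes did), from -0.29 for Csf3r to -5.49 for Chil3, with a median of -3.45. Their summed processed intensity was 616358 and 665542 with the vector and 42979 and 47326 with ESlncRNA, and 4 of the 25 were kept through the vector channel alone, which fixed their direction. The summed intensity of the 5 stefin A probes was 204572 and 210740 with the vector and 4589 and 4804 with ESlncRNA. Of 18 macrophage markers 13 were kept, 7 of them through the vector channel alone, and all 13 fell, a count that the filter largely fixed. Their median log2 ratio was only -0.99. Their summed intensities were 7286 and 7392 with the vector against 997 and 1017 with ESlncRNA, and Csf1r alone gave 3798 and 3790 of the vector sums. Of 15 markers of mast cells, basophils and eosinophils 12 were kept, 4 of them through the vector channel alone, and all 12 fell. Their median was -3.03, and their sums were 22978 and 23152 with the vector against 2182 and 2268 with ESlncRNA. The part of these cells in the stefin A values was not tested, and in bulk RNA fewer cells of a type and less RNA per cell cannot be told apart. With median centring 23 granulocyte markers fell and 2 rose.

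Outside the locus, the 5 genes whose ratios on the 2 arrays lay closest to the stefin A medians were Chil3, S100a8, S100a9, Ctsg and Plac8. Their distances over the 2 arrays, on the log2 scale, ran from 0.0476 for Chil3 (-5.49 ± 0.02) to 0.345 for Plac8 (-5.23 ± 0.021). Chil3, S100a8, S100a9 and Ctsg are among the granulocyte markers, which were chosen with earlier results of these arrays known.

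**Figure D4:**
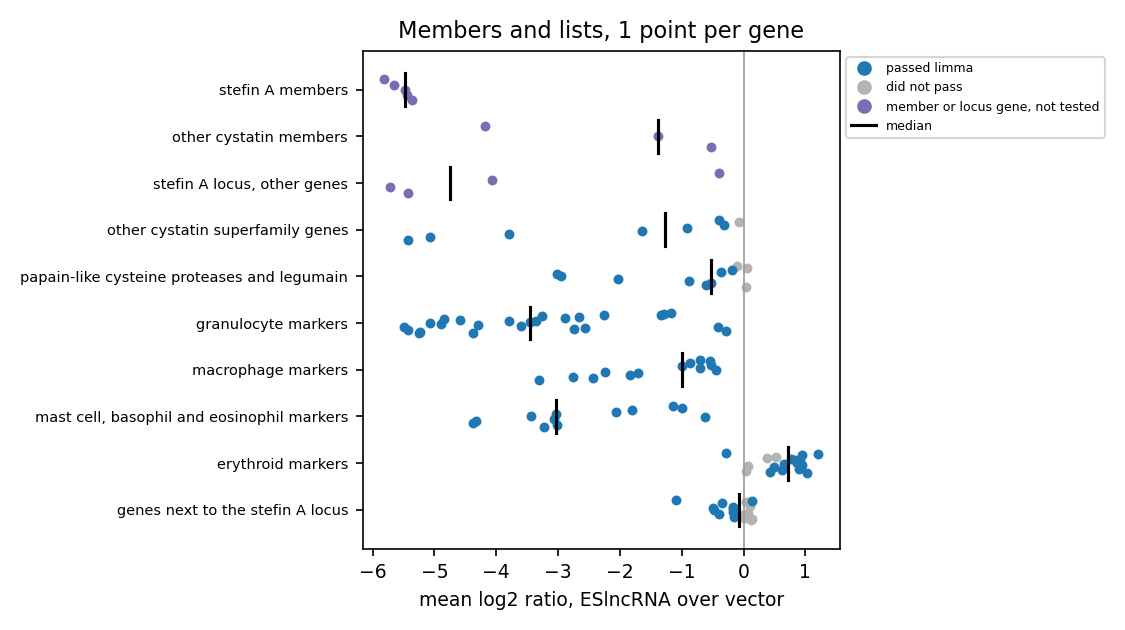
Mean log2 ratio of ESlncRNA over vector for each measured gene of the members and lists, 1 point per gene, with a black line at the median of each. Purple points are given without a test, blue points passed limma (adjusted p under 0.05) and grey points did not. Cstdc4 and Cstdc6 appear both in purple among the locus genes and in blue among the other superfamily genes. The stefin A members lie at the low end of the granulocyte markers (median -3.45), and the erythroid markers have a median of 0.71.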

How the data were processed

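Per the file headers, Feature Extraction 10.1.1.1 read both arrays, and probe coordinates are on mm9. The deposited intensities are mean spot and median local background signals, uncorrected, and processed intensities. The deposited log10 ratios served as a check of direction (r = 0.985 and 0.992 with the processed signals). The authors also deposited log2 values, made with limma per the submitters' processing notes. They had medians of -0.02 and -0.01 and correlated at r = 0.99996 with ratios made here by loess without background correction, from which their scale and direction were taken.

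Here normexp (offset 50) removed the background and loess normalized each array, control and outlier-marked spots having weight 0 (R 4.3.3, limma 3.58.1). Marked spots numbered 284 and 308 of 59305, and 0 were saturated. Median spot signals were 35.9 and 39.5 with the vector and 67.8 and 76.3 with ESlncRNA. The number of arrays limits the precision. A probe was kept (26792 were) if either channel was well above background on each array, and a gene was represented by its brightest. A linear model was fitted with limma over all of them, with Benjamini-Hochberg adjustment and a threshold of 0.05.

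The fit was tested on simulated data for 26792 probes, 50 changed at each size, with mixed outcome. With the observed spread between arrays shuffled over probes as noise, it recovered 0% of changes at each size (0.25, 0.5, 1 and 2 on the log2 scale) and made 0 false calls. The noise was then replaced by draws from limma's own fitted prior, which assumes the model it tests. That recovered 18% at 0.25 and 100% at each larger size, with 32 false calls, a larger share of all calls than the threshold of 0.05. On the arrays 36.8% of genes were called lower and 26.3% higher, a far larger share than was changed in the simulation.

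Folds written "at least" set the brighter channel's mean against the dim channel, raised to the lowest signal called well above background, with channels scaled by loess and then Aquantile. They are open to dye bias. Members, lists and tests were chosen with earlier results of these data known. Named genes are the members, the locus genes, the neighbours, the 4 of smallest p in each list and the 5 most alike genes, and others were chosen after their values were seen.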

Additional observations from a re-analysis of the deposited data

How the results depend on the processing

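The 5 stefin A members were negative under every alternative run, and their median moved by more than its SD under median centring (-4.79) and in Agilent's processed signals (-5.42). The median of the other cystatins did so with median centring (-0.63), where Cstb turned to 0.09. On the single arrays of replicates 1 and 2, which allow no test, the stefin A median was -5.49 and -5.46, the other cystatin median -1.35 and -1.43, and the gap between them -4.14 and -4.03. With median centring, protease calls were 5 lower and 1 higher, and 2 granulocyte markers rose. With no filter on dim probes 2 other superfamily genes rose. Calls among the neighbours of the locus, near 0, moved most. Lower and higher neighbours numbered 1 and 12 under median centring, 2 and 6 in the processed signals, 5 and 1 with an offset of 0, and 5 and 0 with the authors' deposited values. Higher neighbours numbered 0 with no background correction and with no filter, and 2 with both channels above background. Without the array as a replicate block, 4 neighbours were lower and 0 higher, and the stefin A median stayed at -5.48. The cause of these differences was not tested.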
